A study of Saccharomyces cerevisiae with 4 samples.

Results

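DNA replication and G1/S genes were followed as a set of 44 genes among the 6256 with a probe on the arrays. They were chosen by name for their role. They encode subunits of the DNA polymerases and primase, the single-strand binding complex RPA, the clamp loader RFC, cohesin, repair and chromatin assembly factors that yeast cells express as they pass from G1 into S phase, and the cyclins and regulators CLN1, CLN2, CLB5, SWI4 and SWE1. The RNA came from 4 biological replicates of the Saccharomyces cerevisiae translocant strain D10 Small, grown in the rich glucose medium YPD with 200 mkg/ml of the aminoglycoside kanamycin, and from a pool of its parental strain WT San I, grown in YPD with no kanamycin named. Cells of both strains were taken at an optical density at 595 nm of 0.4 to 0.5. Each of 4 arrays read in 2 dyes set 1 replicate of D10 Small (Cy3) against the same pool (Cy5). The pool is therefore 1 control sample whose own spread enters no test, strain and drug changed together and cannot be told apart, and since the dyes were not swapped the same holds for dye and strain. The labels give no further genotype, mating type or ploidy for either strain, and they do not say whether D10 Small is 1 clone.

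In budding yeast, the cyclin Cln3 with the kinase Cdc28 releases the transcription factor SBF (Swi4 with Swi6) from the repressor Whi5 late in G1. The transcription factor MBF (Mbp1 with Swi6) becomes active at the same stage. These factors switch on the G1 cyclins, the S-phase cyclins and much of the machinery that copies DNA, holds sister chromatids together and repairs errors behind the fork, so the transcripts rise together once in each division. In a culture that is not synchronised, the level of such a transcript depends both on its rate of transcription and on the share of cells in that phase, and these arrays cannot separate these, nor fewer cells of a kind from less RNA per cell.

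Spots were brighter in the D10 Small channel than in the pool's channel on every array, with median raw intensities from 304 to 444 in D10 Small and from 120 to 261 in the pool. Between 91.8% and 93.2% of the gene probes were above background in D10 Small and between 86.0% and 89.1% in the pool. All 44 genes were above background in both channels on all 4 arrays, so none entered the test through 1 channel alone. Ratios below are log2 of D10 Small over the pool after background correction and loess normalisation, given per array in the order of replicates 1 to 4 or as mean ± SD with n = 4, and adjusted p-values come from limma with Benjamini-Hochberg adjustment over 5794 tested genes. The SD of these 44 genes over the arrays ran from 0.013 to 0.15 with a median of 0.07, which was also the median over all tested genes.

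Most of the DNA replication and G1/S transcripts were lower in D10 Small. Of 44 genes, 34 fell, 4 rose and 6 did not pass at an adjusted p of 0.05 in limma, against 39.5% of all tested genes that were lower and 43.1% that were higher. The median ratio of the 44 genes was -0.35, against 0.02 over all tested genes, and the interquartile ranges were -0.60 to -0.12 and -0.28 to 0.35. The differences were mostly small. Only 3 of the 44, RFA1, MCD1 and POL1, were at least 2-fold lower, as were 3.11% of all tested genes. Against a minimum fold of 1.2, limma's treat test called 22 of the 44 lower, where 20% of all tested genes passed. It called none of the 44 higher, where 24.5% of all tested genes passed, and 0 of them had an unadjusted p under 0.05 in that direction. Of the 44 genes, 27 lay in the lowest 25% of all tested genes, 9 in the lowest 10% and 0 in the highest 25%. These shares depend on how the dyes are balanced, since median centring in place of loess left 26 lower and 7 higher with a median of -0.17.

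**Figure D1:**
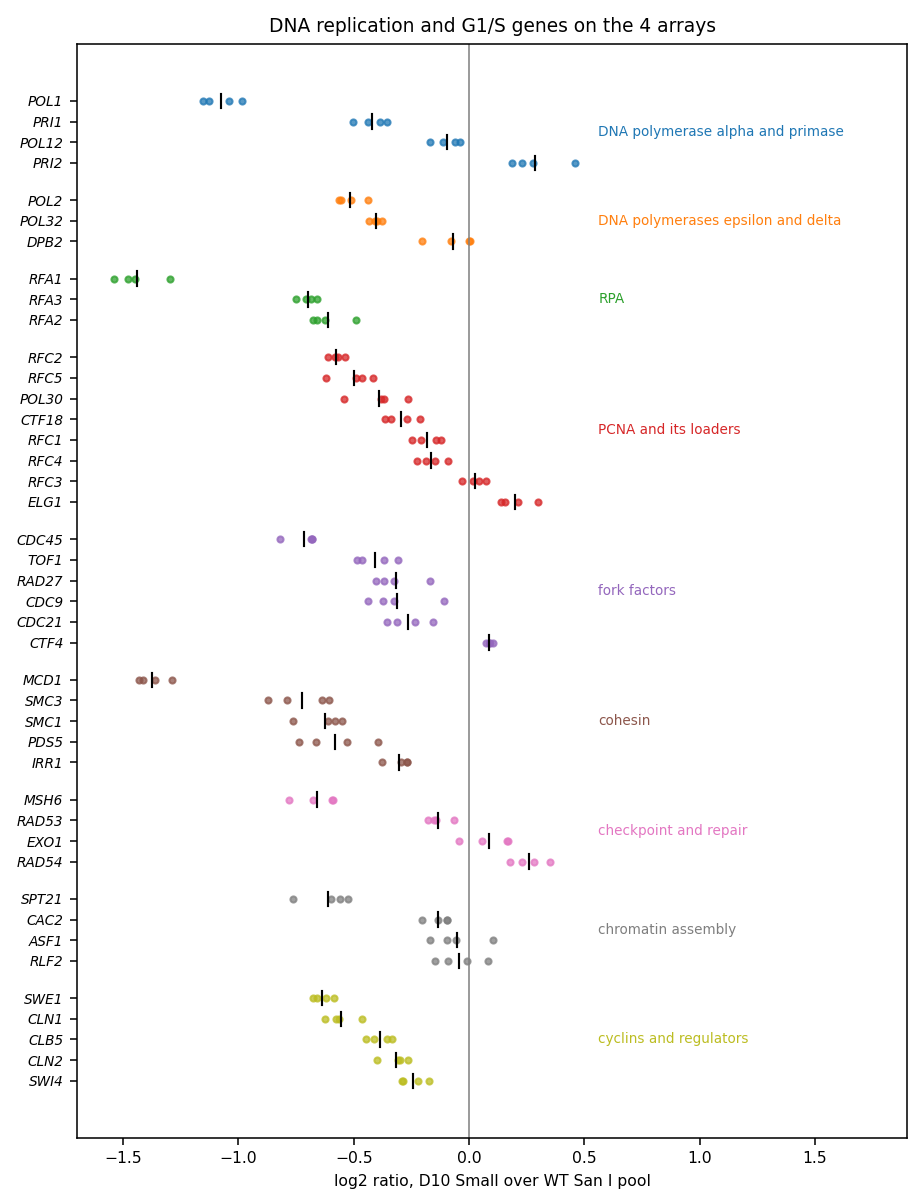
Log2 ratio of D10 Small over the WT San I pool (horizontal axis) for 42 of the 44 genes, grouped by role. Each dot is 1 array and each black bar the mean of 4 arrays. RFA1, MCD1 and POL1 lie farthest to the left, and PRI2, RAD54, ELG1 and CTF4 lie to the right of 0 on all 4 arrays.

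DNA polymerase alpha and primase form 1 complex, which starts every new DNA strand by laying down an RNA primer and extending it. Its 4 subunits went different ways. POL1 (YNL102W), the catalytic polymerase subunit, had ratios of -1.13, -1.04, -1.15 and -0.99, a mean of -1.08 ± 0.08 and a 2.11-fold lower level in D10 Small (adjusted p = 1.38e-07 in limma). In raw intensity, POL1 read 417, 366, 306 and 275 in D10 Small, against 614, 377, 316 and 263 in the pool. The channels were thus near level on 3 arrays, while the median gene was far brighter in the D10 Small channel. PRI1 (YIR008C), the catalytic primase subunit, fell to a mean ratio of -0.42 ± 0.06, and the B subunit POL12 (YBL035C) to -0.09 ± 0.06, with an adjusted p of 0.0305 in limma. PRI2 (YKL045W), the large primase subunit, rose, with ratios of 0.46, 0.28, 0.19 and 0.23. The ranges of the 4 subunits over the arrays did not overlap, with POL1 lowest, then PRI1, POL12 and PRI2. POL12 lost its call without replicate 1, 2 or 3 and had a ratio of 0.01 with median centring.

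Polymerase epsilon extends the leading strand and polymerase delta the lagging strand. POL2 (YNL262W), the catalytic subunit of epsilon, had ratios of -0.51, -0.44, -0.56 and -0.56 and was 1.43-fold lower in D10 Small. DPB2 (YPR175W), the second subunit of epsilon, did not pass, with a mean of -0.07 and a 95% confidence interval from -0.17 to 0.03. POL32 (YJR043C), an accessory subunit of delta, fell to -0.40 ± 0.02. Every value of POL2 lay below every value of DPB2.

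RPA coats single-stranded DNA at the fork, and all 3 of its genes fell, as did 39.5% of all tested genes. RFA1 (YAR007C), the largest subunit and the one that carries most of the DNA-binding domains, had the lowest ratio of the 44 genes. Its ratios were -1.54, -1.45, -1.48 and -1.30, a mean of -1.44 ± 0.10 and a 2.72-fold lower level in D10 Small (adjusted p = 8.30e-08 in limma). Raw intensities of RFA1 were 249, 223, 195 and 170 in D10 Small, against 502, 332, 276 and 221 in the pool, and the pool was the brighter channel on all 4 arrays. Only 1.04% of all tested genes had a lower ratio. RFA2 (YNL312W) and RFA3 (YJL173C) had -0.61 ± 0.08 and -0.70 ± 0.04, and their ranges overlapped each other and not that of RFA1.

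PCNA is the ring that tethers polymerases to DNA, and RFC opens it and loads it. The PCNA gene POL30 (YBR088C) fell, with ratios of -0.37, -0.26, -0.54 and -0.38 and a 1.31-fold lower level in D10 Small. Among the 5 RFC genes, RFC2 (YJR068W) and RFC5 (YBR087W) had -0.58 ± 0.03 and -0.50 ± 0.09. RFC1 (YOR217W), the large subunit, and RFC4 (YOL094C) had -0.18 ± 0.06 and -0.16 ± 0.06. RFC3 (YNL290W) had 0.03 ± 0.04 and did not pass, with a 95% confidence interval from -0.05 to 0.10. The ranges of RFC2 and RFC5 lay below those of RFC1 and RFC4, and these below that of RFC3. RFC4 was the dimmest of the 44 genes, with 36.8 to 60.0 raw units in the pool, and the net ratio of the scanner gave -0.62 for it. Its place among the RFC genes thus depended on the processing, and RFC1 had a ratio of 0.00 with median centring and no longer passed. CTF18 (YMR078C), which takes the place of RFC1 in a loader linked to cohesion, fell to -0.30 ± 0.07. ELG1 (YOR144C), whose loader-like complex takes PCNA off DNA, rose to 0.20 ± 0.07 and was higher on all 4 arrays.

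Among fork and Okazaki fragment factors, CDC45 fell most. CDC45 (YLR103C), which joins the MCM ring to form the active helicase, had ratios of -0.69, -0.68, -0.82 and -0.68, with replicate 3 apart from the other arrays, and was 1.64-fold lower. TOF1 (YNL273W), which steadies paused forks, had -0.41 ± 0.08. The flap nuclease RAD27 (YKL113C) and the DNA ligase CDC9 (YDL164C), which together join Okazaki fragments, had -0.32 ± 0.10 and -0.31 ± 0.14, and CDC9 spanned -0.44 to -0.11 over the arrays. CDC21 (YOR074C), the thymidylate synthase that makes the DNA precursor dTMP, had -0.26 ± 0.09. RAD27, CDC9 and CDC21 did not pass with median centring, where their ratios were -0.08, -0.07 and -0.03. CTF4 (YPR135W), which couples the helicase to polymerase alpha, had 0.09 ± 0.013, higher on all 4 arrays at an adjusted p of 0.0203 in limma. That call was lost without replicate 2 or 3, by the scanner's ratio and by the authors' table.

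Cohesin is the ring that holds sister chromatids together from S phase until anaphase. All 5 of its genes fell, as did 39.5% of all tested genes. MCD1 (YDL003W), the subunit cut at anaphase and made anew in each cycle, had ratios of -1.42, -1.36, -1.43 and -1.29 and was 2.59-fold lower in D10 Small (adjusted p = 4.06e-08 in limma). Raw intensities of MCD1 were 289, 255, 232 and 220 in D10 Small, against 531, 331, 300.3 and 263 in the pool. The pool was again brighter on every array. SMC3 (YJL074C) and SMC1 (YFL008W), the long arms of the ring, had -0.73 ± 0.13 and -0.63 ± 0.10. PDS5 (YMR076C), which guards the closed ring, had -0.58 ± 0.15, the widest spread of the 44 genes, and IRR1 (YIL026C), the Scc3 subunit, had -0.30 ± 0.05. Every value of MCD1 was below every value of the other 4 cohesin genes.

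Checkpoint and repair genes were split. MSH6 (YDR097C), a subunit of a complex that recognises mismatches, had ratios of -0.59, -0.68, -0.78 and -0.59 and was 1.58-fold lower in D10 Small. RAD54 (YGL163C), a motor protein of homologous recombination, rose, with ratios of 0.35, 0.28, 0.23 and 0.18. The ranges of MSH6 and RAD54 lay on opposite sides of 0 on all 4 arrays. RAD53 (YPL153C), the checkpoint kinase that answers stalled forks, had -0.13 ± 0.05 and passed at 0.00520 in limma, with 0.05 under median centring. EXO1 (YOR033C), a nuclease of mismatch repair and end resection, had 0.09 ± 0.10 and did not pass, with a 95% confidence interval from -0.01 to 0.19.

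Of the 4 genes for chromatin assembly and histone gene control, 3 were close to level. ASF1 (YJL115W), a chaperone of histones H3 and H4, and RLF2 (YPR018W), the large subunit of the assembly factor CAF-1, did not pass, with 95% confidence intervals from -0.16 to 0.05 and from -0.14 to 0.06. CAC2 (YML102W), another CAF-1 subunit, had -0.13 ± 0.05, which was 0.06 and no longer passed with median centring. SPT21 (YMR179W), an activator of histone genes, stood apart from these with ratios of -0.56, -0.60, -0.76 and -0.52 and a 1.53-fold lower level.

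All 5 cyclin and regulator genes fell in D10 Small, as did 39.5% of all tested genes. The G1 cyclin CLN1 (YMR199W), which drives budding and the destruction of the S-phase inhibitor Sic1, had ratios of -0.56, -0.46, -0.62 and -0.58. Its paralog CLN2 (YPL256C) had -0.40, -0.30, -0.26 and -0.31. The range of CLN1 lay just below that of CLN2, but both had -0.71 by the scanner's net ratio, and CLN2 was the dimmest of the set after RFC4 in the pool. CLB5 (YPR120C), the cyclin that fires origins, had -0.39 ± 0.05. SWE1 (YJL187C), a kinase that holds back mitotic Cdc28, had -0.64 ± 0.04. SWI4 (YER111C), the DNA-binding subunit of SBF, had -0.24 ± 0.06 with loess and -0.01 with median centring, where its adjusted p was 0.823 in limma.

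Of 20 other G1/S regulators, 15 fell, 3 rose and 2 did not pass, beside 39.5% lower and 43.1% higher over all tested genes. Their median was -0.20, which was -0.15 with median centring and -0.53 by the scanner's ratio. SWI6, the subunit shared by SBF and MBF, had -0.74 ± 0.10, and MBP1, which gives MBF its DNA binding, had -0.29 ± 0.07. The S-phase cyclin CLB6 had -0.76 ± 0.13, but it lies on VII right, an arm whose 272 tested genes had a median of -0.49. The repressor of MBF genes NRM1 had -0.46 ± 0.04, the SBF-bound repressor WHI5 -0.21 ± 0.08, the SBF and MBF partner STB1 -0.31 ± 0.02 and the inhibitor SIC1 -0.14 ± 0.04. CLN3, the cyclin at the head of the pathway, had -0.06 ± 0.01 and did not pass (adjusted p = 0.0736 in limma). In the other direction, CKS1, the small subunit of Cdc28 complexes, had 0.90 ± 0.04, and BCK2, which promotes G1/S transcription beside CLN3, had 0.83 ± 0.07.

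Replication genes outside the set are given by list, beside 39.5% lower and 43.1% higher over all tested genes. Of 14 origin licensing genes, which load the MCM helicase in G1, 11 fell and 2 rose, with a median of -0.22, which was -0.06 with median centring. MCM5 had -0.97 ± 0.08, the origin recognition subunit ORC5 -0.62 ± 0.09, MCM2 -0.54 ± 0.10 and MCM7 -0.45 ± 0.09. Of 23 genes for origin firing and other fork functions, 14 fell and 3 rose, with a median of -0.15. That median was -0.11 with median centring and -0.45 by the scanner's ratio. The checkpoint mediator MRC1 had -0.93 ± 0.15, the RNase H2 subunit RNH201 -0.91 ± 0.04, the topoisomerase TOP2 -0.87 ± 0.09 and the kinase activator DBF4 -0.59 ± 0.07. Of 6 genes for cohesin loading and establishment, 4 fell and 0 rose, with a median of -0.22, which was -0.50 with background left uncorrected. The acetyltransferase ECO1 had -0.51 ± 0.08, the loader SCC2 -0.34 ± 0.09, RAD61 -0.11 ± 0.04 and DCC1, a partner of CTF18, -0.68 ± 0.08. Of 9 other genes for chromatin assembly and histone gene control, 6 fell and 1 rose, with a median of -0.20, which was -0.05 with median centring. The histone acetyltransferase RTT109 had -0.57 ± 0.10, the CAF-1 subunit MSI1 -0.30 ± 0.12, HIR2 -0.28 ± 0.07 and the chaperone RTT106 -0.26 ± 0.06. Of 24 other repair and checkpoint genes, 9 fell and 12 rose, with a median of 0.02. RDH54, a relative of RAD54 in recombination, had 2.56 ± 0.16, RMI1 1.11 ± 0.06, the mismatch gene MSH3 -0.78 ± 0.19 and the checkpoint kinase DUN1 -0.71 ± 0.12. MRC1 and DCC1 lie on III left and MSH3 on III right, arms with medians of -0.81 and -0.31. None of the 44 genes lies on chromosome III.

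**Figure D2:**
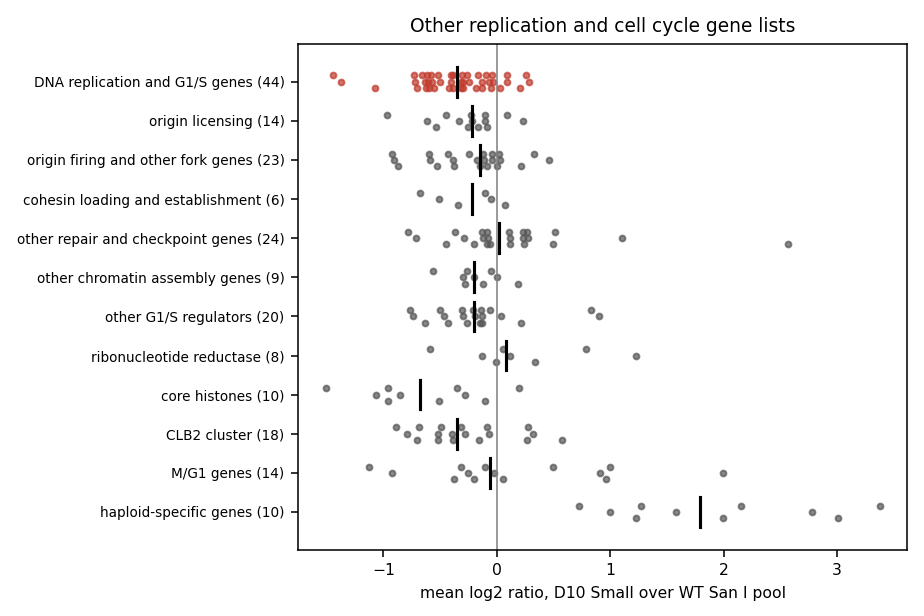
Mean log2 ratio over 4 arrays (horizontal axis) for the 44 genes in red and for 11 other lists in grey, with the number of genes in brackets. Each dot is 1 gene and each black bar the median of its list. Medians are -0.35 for the 44 genes, -0.68 for histones, -0.35 for the CLB2 cluster and 0.02 for other repair and checkpoint genes. For 5 of the 10 haploid-specific genes the pool was above background on 1 array or none, and their dots rest on that dim signal.

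Genes of other phases of the division cycle were set beside the 44, and beside 39.5% lower and 43.1% higher over all tested genes. Of 10 histone genes, most of which peak in S phase, 9 fell and 1 rose, with a median of -0.68. HTB1 had -1.51 ± 0.09, HTA1 -1.07 ± 0.07, HTA2 -0.96 ± 0.10 and the linker histone gene HHO1 -0.96 ± 0.06. The fall was not shared by all histone genes, since the H3 genes HHT1 and HHT2 had -0.11 ± 0.07 and 0.20 ± 0.13. Of 18 genes of the CLB2 cluster, which peak before mitosis, 13 fell and 4 rose, with a median of -0.35, which was -0.11 with median centring. The cytokinesis gene HOF1 had -0.89 ± 0.08, the cyclin CLB1, which like CLB6 lies on VII right, -0.80 ± 0.12, the polo kinase CDC5 -0.70 ± 0.13 and the kinase gene KIN3 -0.69 ± 0.21. Of 14 genes expressed between mitosis and G1, 7 fell and 5 rose, with a median of -0.06. The cyclin PCL9 had -1.13 ± 0.06 and the cell wall gene PST1 0.96 ± 0.13, while RME1 and FAR1 are also haploid-specific. The pool was above background for RME1 on only 1 array and for FAR1 on none, and FAR1 was at least 2.00-fold higher. Ribonucleotide reductase and its control genes went both ways. RNR1, the large subunit that rises at G1/S, had -0.59 ± 0.10, the small subunit RNR2 0.78 ± 0.12, the inhibitor SML1 1.23 ± 0.05 and RNR3 0.34 ± 0.10. The pool was above background for RNR3 on only 2 arrays. Haploid-specific genes are off in a/alpha diploid cells. Of 10 such genes, 5 were above background in the pool on all 4 arrays, and these 5 rose, with ratios from 1.27 to 3.37. STE4 had 3.37 ± 0.31, GPA1 3.01 ± 0.27 and FUS3 2.78 ± 0.34. The other 5 entered the test through the D10 Small channel, and AXL1 among them was at least 4.44-fold higher. Whether this has a part in the levels of the 44 genes was not tested.

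The 44 genes lie on 21 chromosome arms, and their neighbours did not share the shift as a group. Their nearest tested neighbours on each side, 85 genes after leaving out the 44 themselves, held 34 lower and 34 higher genes with a median of 0.02, beside 39.5% lower and 43.1% higher over all tested genes. The arms that hold the 44 genes had medians from -0.14 for IV left to 0.45 for XV left, and 40 of the 44 genes were below the median of their own arm. The median of the difference from the arm was -0.49 over all 44 genes. POL1 at -1.08 stood between MET4 at 0.73 ± 0.09 and AVT4 at 0.19 ± 0.07. RFA1 and MCD1, with the lowest ratios of the 44, had neighbours that were lower too. SWD1 and SEN34 beside RFA1 had -0.52 ± 0.04 and -0.95 ± 0.05, and ATP16 and NHP10 beside MCD1 had -0.70 ± 0.11 and -0.30 ± 0.05. RFC5 and POL30 are neighbours on II right and were both lower. Of the 34 genes that fell, 13 had no lower neighbour outside the set. A further 11 had lower and other neighbours, and 10 had only lower ones. Among all 44 genes, 27 were below each of their neighbours, and 22 of these were among the 34 that fell. RFC4 lies on XV left, where the 158 tested genes had the highest median of these arms, and it was below it. The neighbours shown here were chosen after their values were seen.

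**Figure D3:**
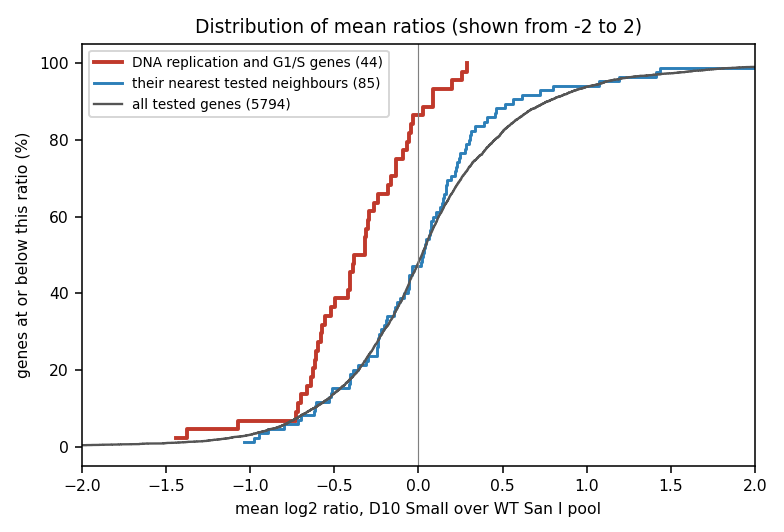
Cumulative percentage of genes (vertical axis) at or below each mean log2 ratio of D10 Small over the pool (horizontal axis), for the 44 genes, their 85 tested neighbours and all 5794 tested genes. The curve of the 44 genes lies to the left, with a median of -0.35, while the other curves run close together with medians of 0.02 each.

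Within the 44 genes, the ratio after loess showed little relation to how bright a gene was or how long. Spearman's rho with the mean level over both channels was -0.03, and with gene length -0.08, over 44 genes that share the same arrays. Over all tested genes these were -0.01 over 5794 genes and -0.07 over 5565 genes with a length. Loess takes out the trend of ratio with level within each array. The value near 0 for level over all tested genes was therefore set by the normalisation, and that of the 44 genes rests on the same ratios. Over the 44 genes, Pearson's r between arrays ran from 0.943 to 0.975 in 6 pairs that share the pool. Of the 44, 38 had 1 sign on all 4 arrays, and the exceptions were the 6 genes that did not pass. Genes of 1 sign were as common among all 5794 tested genes, where 2411 were lower and 2637 higher on all 4 arrays.

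The direction of the set was the same in every way of computing the ratio that was tried, and its size was not. The median of the 44 genes was -0.61 by the net ratio of the scanner, -0.46 in the authors' table and -0.44 with background left uncorrected, and the same 34 genes were lower in each of these. With median centring, 26 of the 34 remained lower, and POL12, RAD53 and CAC2 had ratios above 0 that did not pass. The median over all tested genes was 0.06 with median centring and -0.05 by the scanner's ratio.

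**Figure D4:**
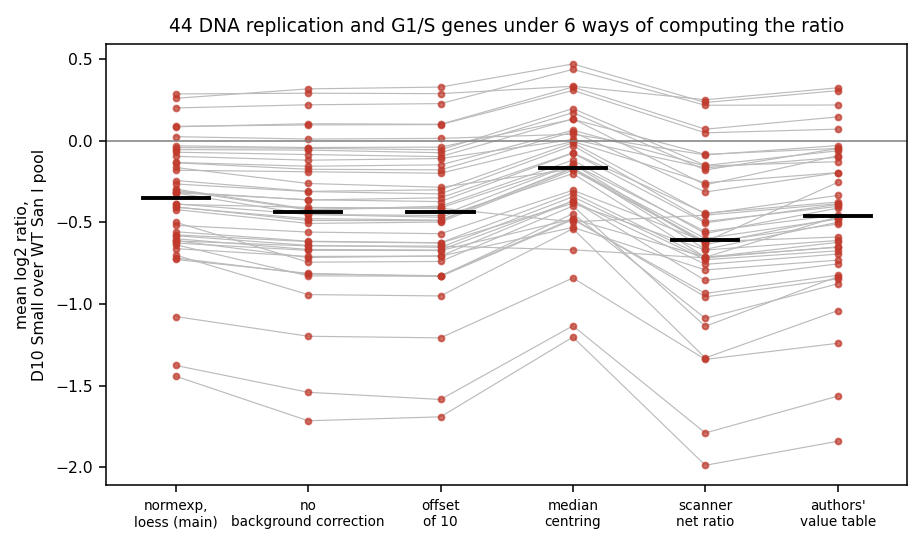
Mean log2 ratio of D10 Small over the pool (vertical axis) for the 44 genes under 6 ways of computing it (horizontal axis), with 1 grey line per gene and black bars at the medians. The median lies between -0.61 with the scanner's net ratio and -0.17 with median centring, and RFA1 is lowest in each of the 6.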

How the data were processed

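Per the file headers, the deposited scanner files give linear spot intensity and local background in each channel, and a net log2 ratio for which the pool was rescaled in an unnamed way. The authors' table of processed values is on a log2 scale. Array medians there were -0.00570 to 0.00265, and against the ratios computed here r was 0.965 to 0.972 and the slope 1.17 to 1.25. It thus runs as D10 Small over the pool, is centred near 0 and has an unstated normalisation. The genome build is not given in the sources used. The labels' protocols state an input of 250 ng RNA, amplified before labelling.

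Mean intensities were corrected with limma 3.58.1 (R 4.3.3) normexp, offset 50, which draws dim ratios toward 0, and normalised by loess within arrays with control spots at weight 0. Detection of a probe required that most of its 7 spots had a net signal over the mean plus 2.6 SD of 153 negative controls. Spots beyond the quartiles of their probe by 1.4 interquartile ranges were left out, 6.51% to 8.48% per array. Of 6256 genes, the 5794 detected in either channel on 3 or more arrays were tested with lmFit and eBayes on an intercept, at an adjusted p of 0.05. A level not above background is given as a bound, against the higher of its own signal and the lowest signal above background, after Aquantile. Symbols, chromosomes and gene order come from RefSeq's R64 table, which matched 5756 probes. The probe sequences and the promoter motif search that was planned were not analysed here.

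Named are 42 of the 44 genes (the others enter counts and medians and are not reported singly here), up to 4 genes of largest ratio per list among those that passed and kept 1 sign over the arrays, and SWI6, MBP1, CLN3, CLB6, WHI5, STB1, NRM1 and SIC1. The members, the 11 lists and the tests were chosen with earlier results of these data known. Other genes were named after their values were seen. In simulated arrays of this comparison (5819 genes, 200 changed) 100% of changes of 2-fold and of 0.5 log2 were recovered. Of the unchanged genes, 0.107% were called. The changed genes were drawn only from brighter probes and were far fewer than the genes called in the data. Recovery at dim probes, or with as many changes as in the data, was therefore not measured. The simulation also left out dye bias that differs from gene to gene, and any deviation of the pool that all arrays would share. Alternatives were other background corrections, median centring, other filters, the scanner's and the authors' ratios, a minimum fold and leaving out each replicate.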

Additional observations from a re-analysis of the deposited data

Results flagged for a closer look

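In 6 of the 94 genes examined, 1 array lay apart from the other 3 by Dixon's criterion at the 95% level, which chance meets in about 1 group of 20. Among the 44 DNA replication and G1/S genes this was CDC45 alone, with -0.82 on replicate 3 and -0.69 to -0.68 on the other arrays. MCM2 had -0.68 on replicate 3, against -0.51 to -0.48 on the others. RNH201 had -0.85 on replicate 4, against -0.93 to -0.92. SWI6 had -0.59 on replicate 4, against -0.80 to -0.78. HHO1 had -1.04 on replicate 1, against -0.94 to -0.92. CDC5 had -0.89 on replicate 1, against -0.65 to -0.63. Each of these 6 genes was lower in D10 Small on all 4 arrays.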

How the results depend on the processing

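No paired analysis was possible because the arrays hold 1 group of replicates against 1 pool. The count of lower genes among the 44 stayed between 33 and 34 without each replicate in turn, was 26 with median centring, and was 22 with a minimum fold of 1.2, where 0 were higher. Median centring left 7 higher, where 36.3% of all tested genes were lower and 43.8% higher. The scanner's net ratio gave 36 lower and 3 higher among the 44. Over all genes the minimum fold of 1.2 left 1419 higher and 1158 lower. The median of the 44 was -0.44 without background correction, -0.43 with an offset of 10, -0.17 with median centring, -0.61 with the scanner's net ratio, -0.46 in the authors' value table and from -0.38 to -0.34 without each replicate. With median centring POL12 had 0.00841, RAD53 0.0546 and CAC2 0.0648, the ribonucleotide reductase list a median of -0.00328 and the list of genes between mitosis and G1 0.00449. The list of other repair and checkpoint genes had -0.00536 with the scanner's net ratio. The median of the haploid-specific list, 1.79 with 5 genes whose pool level was above background on 1 array or none, was 2.78 with the stricter filter, 2.85 without background correction, 3.01 in the authors' table and 4.54 by the scanner's ratio. The median of the cohesin loading list, -0.22, was -0.50 in the authors' table and -0.77 by the scanner's ratio. The cause of these shifts was not tested. Of the 38 genes of the set that passed, 23 had ratios over 1.5 times smaller, or of the other sign, with median centring, and 13 had ratios over 1.5 times as large with the scanner's net ratio. Keeping all spots, or no or a stricter filter on dim probes, changed no call among the 44. The number of arrays, the single pool and the fixed dyes limit precision, and dim genes such as RFC4 have ratios drawn toward 0.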
